A study of Mus musculus with 2 samples.

Results

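Axon injury and growth genes were followed in nuclei sorted from the hindbrain after a virus that travels back along axons was placed in the lumbar spinal cord. Whether the axon of each counted nucleus reached the lumbar cord was not tested. The set held 10 of the 23912 genes in the count tables, kept whatever their values were: Atf3, Sox11, Gap43, Stat3, Klf6, Klf7, Ecel1, Stmn4, Gadd45a and Gal. All of them had a row in both tables. Both groups came from mice of the TRAP2 strain aged 8 to 12 weeks. In this strain an inducible recombinase is expressed from the Fos locus, so that neurons active in a chosen time window can be marked. In both groups a retrogradely transported virus carrying H2B-GFP, a fluorescent protein fused to a histone, had been placed in the lumbar cord. The SNI with brush group supplied 1 library and the hot water bath group supplied 1 library. SNI is not spelled out in the labels, and in pain research it commonly stands for spared nerve injury. Hindbrains from -7.3 to -5.2 mm relative to bregma were pooled within a treatment, and the number of animals is not given in the labels. There was no replicate library, so no difference between the treatments could be tested. Each value is a summed count of UMIs, the molecular tags that mark single captured RNA molecules, and all 95% intervals cover counting error only.

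Neurons whose axon is cut switch on a shared transcription program, best known from dorsal root ganglion cells and motor neurons. Atf3, Stat3, Sox11, Klf6 and Klf7 encode transcription factors of that program, Gap43 and Stmn4 encode proteins of the growing axon, and Gadd45a, Ecel1 and Gal are induced alongside them. Gap43 also stays on in many uninjured adult brainstem neurons, among them serotonergic cells. Spared nerve injury severs axons in the periphery, whereas the nuclei counted here were sorted from the hindbrain.

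After removal of called doublets and of 17 nuclei of the SNI with brush library that carried liver genes, 269 neuronal nuclei remained in the SNI with brush library and 422 in the hot water bath library. They held 10720989 and 16158704 UMIs, with medians of 33172 UMIs per nucleus in SNI with brush and 36886 in hot water bath. The libraries shared no cell barcode. The 8 neuron markers summed to 20543 CPM, UMIs per 1000000, in SNI with brush nuclei and 19965 CPM in hot water bath nuclei, and all 8 were detected in both libraries. By their own transmitter genes, 122 SNI with brush nuclei were glutamatergic, 103 inhibitory and 3 serotonergic, and 41 held mixed or too few transmitter UMIs. Of the hot water bath nuclei, 251 were glutamatergic, 60 inhibitory, 26 serotonergic and 85 mixed or with too few. Mitochondrial genes took 0.494% of UMIs in SNI with brush nuclei and 0.149% in hot water bath nuclei. Oligodendrocyte markers summed to 185 CPM against 78.3 CPM with all 6 detected in both libraries, astrocyte markers to 22.1 against 6.68 CPM, and liver markers to 259 against 11.1 CPM, with Alb, Serpina1a and Fgb at 0 in hot water bath. The part of these differences in the results below was not tested.

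Of the 10 members, 9 had at least 20 UMIs over both libraries and so were given a ratio of the SNI with brush level to the hot water bath level, and Atf3 did not. Across neuronal nuclei 3 members were at least 1.5-fold higher in SNI with brush (Gal, Gadd45a and Stmn4), 1 was at least 1.5-fold lower (Gap43), and 5 lay within 1.5-fold. Of all 17480 genes with a ratio, 30.4% passed the same limit upwards and 8.43% downwards, so neither share of the members stands far from that of the transcriptome. The median log2 ratio was 0.03 over the 9 members and 0.23 over all genes. Scaling by size factors, the median ratio over genes, in place of totals lowered every log2 ratio by 0.24, which put Sox11 at -0.06 and Ecel1 at -0.21 and so turned their direction. The ratio also varied with gene length: with all genes cut into 5 groups of like size by the length of the gene body, the median log2 ratio was 0.64 in the group of the shortest and -0.05 in that of the longest.

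**Figure D1:**
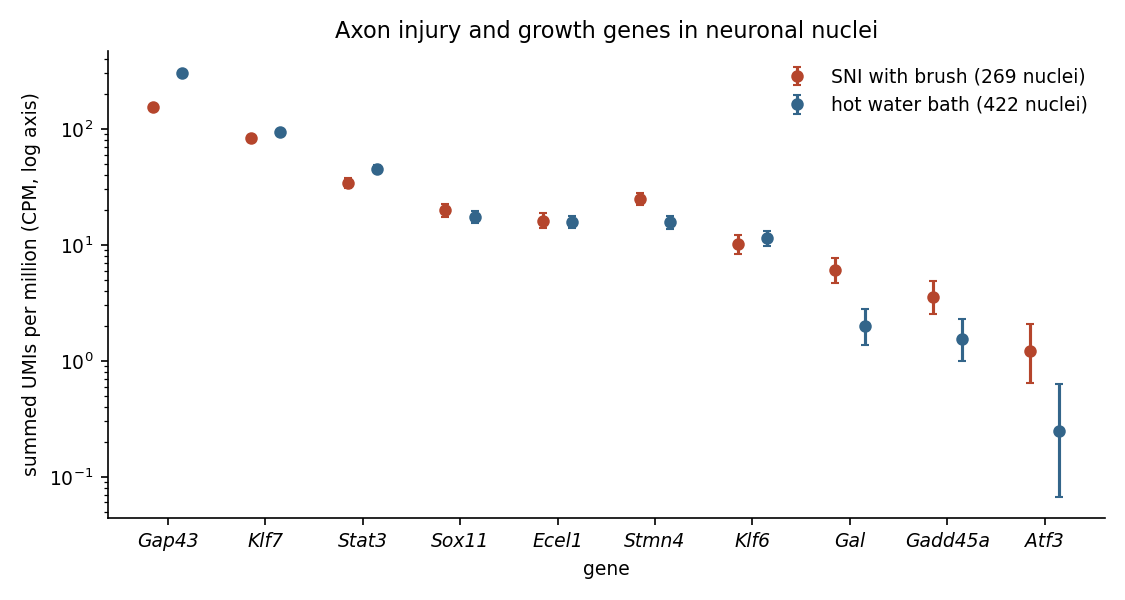
Level of each member in neuronal nuclei, as summed CPM on a log axis, for 269 SNI with brush nuclei and 422 hot water bath nuclei; points are sums over 1 library and bars are exact 95% Poisson intervals. Gap43 lies lower in SNI with brush (154 against 300.4 CPM), whereas Gal, Gadd45a and Atf3 lie higher there on counts of 65, 38 and 13 UMIs.

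Atf3, the transcription factor most widely used as a mark of axotomized neurons, was close to absent from both libraries. It had 13 UMIs in 5 of 269 SNI with brush nuclei and 4 UMIs in 4 of 422 hot water bath nuclei, or 1.21 CPM (0.65 to 2.07) against 0.248 CPM (0.067 to 0.634). A single SNI with brush nucleus held 8 of the 13 UMIs. With every nucleus thinned to 9000 UMIs, Atf3 was found in 3 SNI with brush nuclei (1.12%, 0.231 to 3.22) and in 2 hot water bath nuclei (0.474%, 0.0574 to 1.70). The gene spans chr1:191170296-191218039 on the minus strand of mm10.

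The nucleus with 8 Atf3 UMIs was glutamatergic, lay in the cluster led by Cyp26b1 and Adgrl4, and had 128130 UMIs with 0.124% of them mitochondrial. It also held 37 UMIs of Gap43, 7 of Klf7, 3 of Stat3, 3 of Csf1, a growth factor that injured sensory neurons release, and 2 of Jun, a partner of Atf3 in dimers. It held 1 UMI of Sox11 and 1 of Klf6, and none of Ecel1, Gadd45a, Gal or Npy. Of the other SNI with brush nuclei with Atf3, 1 lay in the cluster led by Acan and Tnfrsf22. The other 3 lay in the cluster led by Hoxb6 and Pax8 and had between 2.16% and 2.71% mitochondrial UMIs. The leading genes of that cluster also include mt-Cytb, mt-Nd1, mt-Atp6 and mt-Nd2, which are mitochondrial. Among the 3 nuclei in it, the nucleus with 2 Atf3 UMIs also had 4 UMIs of Jun and 2 of Klf6. The 4 hot water bath nuclei with Atf3 held 1 UMI each and were all glutamatergic, and 1 of them also had 2 UMIs of Jun and 2 of Csf1. No Atf3 UMI was seen in a serotonergic nucleus of either library, where 3 UMIs would amount to 19.8 CPM in SNI with brush and 2.74 CPM in hot water bath.

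The start regions of Atf3, Gadd45a and Gal, which had the fewest UMIs of the members and lay higher in SNI with brush in the sum over neuronal nuclei, are shown for reference. They come from RefSeq on GRCm38.p6 and run from 250 bases before the annotated start to 50 bases after it, all on the minus strand: chr1:191183284-191183583, chr6:67037358-67037657 and chr19:3414495-3414794. Capitals mark GGGCGG, the core of the box that Sp and Krüppel-like factors bind, on either strand.
Atf3: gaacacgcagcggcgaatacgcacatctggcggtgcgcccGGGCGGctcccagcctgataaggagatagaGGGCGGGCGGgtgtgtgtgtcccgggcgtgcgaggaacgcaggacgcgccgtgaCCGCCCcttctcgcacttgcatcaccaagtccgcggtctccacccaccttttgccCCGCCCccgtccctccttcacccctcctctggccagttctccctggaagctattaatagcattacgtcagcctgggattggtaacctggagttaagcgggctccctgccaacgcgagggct
Gadd45a: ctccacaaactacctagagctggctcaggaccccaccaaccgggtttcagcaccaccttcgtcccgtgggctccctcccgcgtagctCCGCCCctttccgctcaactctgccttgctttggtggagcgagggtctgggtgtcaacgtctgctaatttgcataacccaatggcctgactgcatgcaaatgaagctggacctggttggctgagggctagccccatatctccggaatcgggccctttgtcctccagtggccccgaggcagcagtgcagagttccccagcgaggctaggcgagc
Gal: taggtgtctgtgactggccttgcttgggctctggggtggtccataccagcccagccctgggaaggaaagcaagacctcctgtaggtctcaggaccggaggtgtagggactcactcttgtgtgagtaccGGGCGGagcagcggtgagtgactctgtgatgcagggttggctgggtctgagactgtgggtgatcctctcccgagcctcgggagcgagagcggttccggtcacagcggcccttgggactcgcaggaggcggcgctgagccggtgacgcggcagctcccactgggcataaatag
The Atf3 window lay within the gene span given above. It held 5 matches to GGGCGG, of which 2 overlap, and the Gadd45a and Gal windows held 1 each. Of the members, 8 had an entry in the RefSeq table (Gap43 and Stmn4 had none), and 7 of the 8, all but Ecel1, held GGGCGG, which 35.7% of 32851 promoter windows hold. None of the 8 held TGANTCA, the site of AP-1 dimers such as Jun with Atf3 (7.81% of windows), TGACGTCA, the cyclic AMP response element (1.79%), TTCNNNGAA, the site of STAT factors (8.30%), or TATAAA (13.6%). Both strands were searched.

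Sox11, a developmental transcription factor that returns in injured sensory neurons, had 212 UMIs in SNI with brush nuclei and 282 in hot water bath nuclei, which is 19.8 CPM (17.2 to 22.6) against 17.5 CPM (15.5 to 19.6). Its log2 ratio of 0.18 had an interval that held 0 (-0.08 to 0.44). In glutamatergic nuclei it stood at 20.4 against 18.6 CPM and in inhibitory nuclei at 15.2 against 12.1 CPM. In hot water bath, serotonergic nuclei had the lowest Sox11 level of the classes, 4.56 CPM on 5 UMIs, and mixed nuclei the highest, 22.2 CPM. The 3 serotonergic nuclei of SNI with brush held 6 Sox11 UMIs. Among clusters with at least 5 nuclei in the library, named here by 2 of their leading genes, Layn/Creb5 had the highest Sox11 level in both libraries, 41.1 CPM in SNI with brush and 37.0 CPM in hot water bath. In the 5 clusters with enough UMIs in both libraries the log2 ratio was above 0 in 3 and below 0 in 2, and all 5 intervals held 0. Thinned to equal depth, Sox11 was found in 15.2% of SNI with brush nuclei and 13.98% of hot water bath nuclei.

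Stat3, which carries signals of the interleukin-6 family cytokines from the cell surface and from the axon to the nucleus, had 367 and 732 UMIs in SNI with brush and hot water bath nuclei, or 34.2 CPM (30.8 to 37.9) against 45.3 CPM (42.1 to 48.7). Its log2 ratio was -0.40 (-0.59 to -0.22), with 37.0 against 64.3 CPM in inhibitory nuclei and 31.1 against 37.9 CPM in glutamatergic nuclei. Per nucleus, the lowest, median and highest Stat3 values were 0, 30.1 and 201 CPM in SNI with brush and 0, 34.4 and 451 CPM in hot water bath, so the groups overlapped almost throughout. The cluster led by Gcg and Snx31, with 28 hot water bath nuclei and 2 of SNI with brush, stood at 149.6 CPM in hot water bath, and its Stat3 UMIs made up 146 of the 732. With inhibitory nuclei defined by cluster instead, the log2 ratio in them was -0.11 in place of -0.80. Size factors put the log2 ratio over neuronal nuclei at -0.65, past 1.5-fold. In the 17 liver-gene nuclei Stat3 stood at 160 CPM (127 to 199), above the 34.2 CPM of SNI with brush neuronal nuclei. Within the 7 clusters with at least 5 nuclei in both libraries, the Stat3 log2 ratio was above 0 in 5 and below 0 in 2, with a median of 0.21. With these 7 clusters given the same weight it was -0.03, against -0.40 over neuronal nuclei. The interval left out 0 in 1 of them, Layn/Creb5, with 1 UMI in 7 SNI with brush nuclei and 38 UMIs in 35 hot water bath nuclei.

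Klf7 and Klf6 are Krüppel-like factors that favour axon growth. Klf7 had 885 UMIs in SNI with brush nuclei and 1502 in hot water bath nuclei, 82.5 CPM (77.2 to 88.2) against 93.0 CPM (88.3 to 97.8), with a log2 ratio of -0.17 (-0.29 to -0.05). Its level was highest in serotonergic nuclei, 132 CPM in SNI with brush and 143 CPM in hot water bath, and lowest in inhibitory nuclei, 68.4 and 78.3 CPM. Glutamatergic (89.4 and 92.4 CPM) and mixed nuclei (86.4 and 86.5 CPM) lay between them, so the point values had the same order in both libraries. The SNI with brush serotonergic level rested on 20 UMIs in 3 nuclei. Its interval, 80.8 to 204 CPM, held the glutamatergic and mixed levels. With the 7 clusters found in both libraries given the same weight, the log2 ratio of Klf7 was 0.26. In Tac1/Arsj Klf7 stood at 114 against 66.8 CPM (log2 ratio 0.79, 0.17 to 1.34) and in Layn/Creb5 at 134 against 88.1 CPM (0.62, 0.01 to 1.18), while the intervals in the other 5 of those clusters held 0. The highest Klf7 level of any cluster was 229 CPM, in the 9 hot water bath nuclei of Crhbp/Nostrin. Klf6 had 109 and 185 UMIs, 10.2 CPM (8.35 to 12.3) in SNI with brush against 11.4 CPM (9.86 to 13.2) in hot water bath, and its interval held 0 (log2 ratio -0.17, -0.53 to 0.18). Among clusters with at least 5 nuclei, the highest Klf6 levels were 15.4 CPM in Cyp26b1/Adgrl4 for SNI with brush and 22.7 CPM in Tph2/Slc6a4 for hot water bath. The Klf7 gene overlaps Gm13748 on the opposite strand, which had 36 UMIs in SNI with brush and 104 in hot water bath, and the Stat3 gene overlaps Stat5a likewise, with 9 and 25 UMIs.

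Gap43, a membrane protein of growth cones and presynaptic endings, had the lowest log2 ratio of the members. It had 1655 UMIs in SNI with brush nuclei and 4854 in hot water bath nuclei, or 154 CPM (147 to 162) against 300.4 CPM (292 to 309), a log2 ratio of -0.96 (-1.04 to -0.88). Per nucleus the lowest, median and highest values were 0, 122 and 994 CPM in SNI with brush and 0, 263 and 1411 CPM in hot water bath. The lower quartile was 41.8 CPM in SNI with brush and 166 CPM in hot water bath. Thinned to 9000 UMIs, Gap43 was found in 62.5% of SNI with brush nuclei (56.4 to 68.3) and in 85.8% of hot water bath nuclei (82.1 to 89.0), against 47.1% of the 17 liver-gene nuclei (23.0 to 72.2), whose median was 22273 UMIs. The gene lies at chr16:42248442-42340651 on the minus strand, in the group of genes with the longest bodies, and set against the median of that group its log2 ratio was -0.91.

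Gap43 differed between transmitter classes in the same order at the top in both libraries. Serotonergic nuclei had the highest level, 714 CPM (586 to 862) in the 3 SNI with brush nuclei, of which 1 held 69 of the 108 UMIs. The 26 hot water bath nuclei stood at 501 CPM (460 to 545), and Gap43 was found in 26 of 26. The log2 ratio in serotonergic nuclei was 0.52 (0.20 to 0.81), above 0. Mixed nuclei came next, with 201 against 374 CPM. Glutamatergic nuclei had 153 CPM in SNI with brush and 257 CPM in hot water bath, a log2 ratio of -0.75 (-0.86 to -0.64), or -0.55 and so within 1.5-fold with nuclei whose transmitter UMIs were all of 1 kind. Inhibitory nuclei had 116 against 302 CPM, a log2 ratio of -1.39 (-1.57 to -1.21). Inhibitory nuclei thus stood below glutamatergic ones in SNI with brush and above them in hot water bath. The clusters that make up a class were not the same. The largest in the glutamatergic class was the Sst/Slc30a3 cluster in SNI with brush (39 of 122 nuclei) and the Prdm6/Spx cluster in hot water bath (43 of 251). In the inhibitory class it was the Sst/Slc30a3 cluster (40 of 103) against the Gcg/Snx31 and Adamts12/Myo3a clusters (14 of 60 each). The Slc17a7/Mapk13 cluster, at 22.1 CPM of Gap43 in SNI with brush, supplied 20 of the 122 glutamatergic nuclei there. In hot water bath that cluster held 7 nuclei in all.

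Clusters spread more widely in Gap43 than the libraries did. Among clusters with at least 5 nuclei in the library, the hot water bath level ran between 5.62 CPM in the Slc17a7/Mapk13 cluster and 511 CPM in the Tph2/Slc6a4 cluster of serotonergic nuclei, with 466 CPM in Gcg/Snx31. The 5.62 CPM rested on 2 UMIs in 7 nuclei (0.681 to 20.3). In SNI with brush it ran between 22.1 CPM in Slc17a7/Mapk13 and 396 CPM in Layn/Creb5, and the 4 SNI with brush nuclei of Tph2/Slc6a4, below that minimum, stood at 658 CPM. Of 19 clusters, 7 had at least 5 nuclei in both libraries, and they held 250 of 269 SNI with brush nuclei and 167 of 422 hot water bath nuclei. Within those 7 the Gap43 log2 ratio was below 0 in 4 and above 0 in 3. It was -1.26 in Hoxb6/Pax8 (-1.60 to -0.92), a cluster whose leading genes include mitochondrial ones. It was -0.59 in Sst/Slc30a3 (-0.83 to -0.35) and -0.42 in Acan/Tnfrsf22 (-0.75 to -0.08), and the intervals of the other 4 held 0. With the 7 clusters given the same weight, the log2 ratio over neuronal nuclei was -0.27, which is within 1.5-fold.

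**Figure D2:**
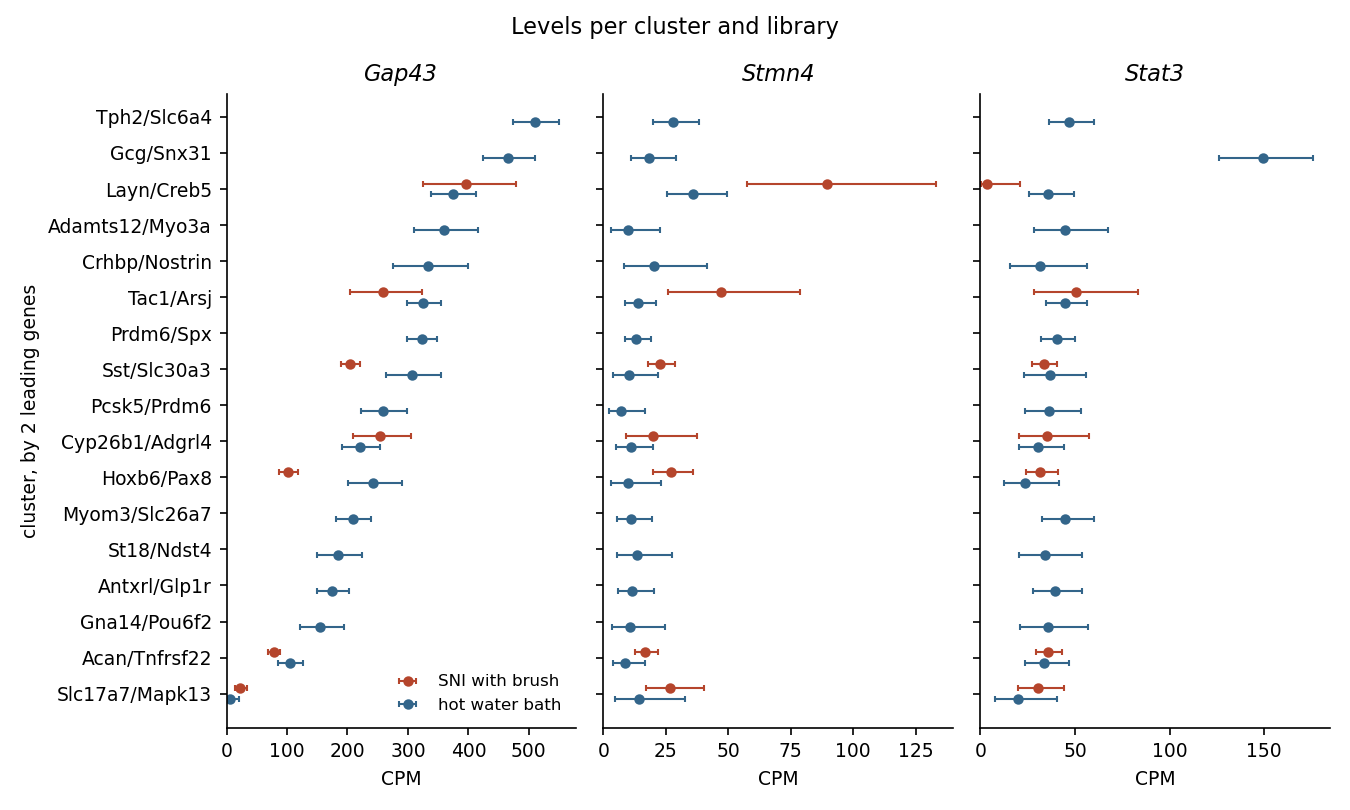
Gap43, Stmn4 and Stat3 level (summed CPM) in clusters with at least 5 nuclei in a library (1 such cluster is not drawn), with exact 95% Poisson intervals; clusters are ordered by Gap43. Gap43 spans 5.62 (on 2 UMIs) to 511 CPM over clusters of hot water bath nuclei. Stmn4 lies higher in SNI with brush in each cluster with both libraries, and Stat3 peaks in Gcg/Snx31 at 149.6 CPM.

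The 5 genes whose values across nuclei were most like those of Gap43, among 4002 genes with at least 500 UMIs in each library, were Gm26871 (r = 0.56 in 269 SNI with brush nuclei and 0.57 in 422 hot water bath nuclei), Usp29 (0.48 and 0.46), Ahi1 (0.48 and 0.45), Negr1 (0.45 and 0.46) and Dpyd (0.41 and 0.45). The measure was Pearson's r of log-scaled counts, and nuclei of a library share its depth and its mix of cell types. For Atf3 the same ranking gave no gene with a mean r above 0.21, and its leading gene, Nnat, had r = 0.45 in SNI with brush and -0.02 in hot water bath. These values rest on the 5 SNI with brush nuclei and 4 hot water bath nuclei with Atf3. A single SNI with brush nucleus held 8 of the 13 UMIs there.

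Stmn4, a stathmin that binds tubulin in growing neurites, was higher in SNI with brush. It had 265 UMIs in SNI with brush nuclei and 252 in hot water bath nuclei, or 24.7 CPM (21.8 to 27.9) against 15.6 CPM (13.7 to 17.6), a log2 ratio of 0.66 (0.41 to 0.92). The log2 ratio was 0.65 (0.31 to 0.99) in glutamatergic nuclei, 1.36 (0.66 to 2.19) in inhibitory nuclei and 1.00 (0.34 to 1.65) in mixed nuclei. It was above 0 in 6 of 6 clusters with enough UMIs in both libraries, between 0.82 and 1.77, with 3 intervals above 0: Layn/Creb5 with 89.6 against 36.0 CPM, Tac1/Arsj with 47.0 against 13.99 CPM and Hoxb6/Pax8 with 27.1 against 9.87 CPM. At 9000 UMIs, Stmn4 was found in 23.0% of SNI with brush nuclei (18.2 to 28.5) and 13.0% of hot water bath nuclei (9.97 to 16.6), and in 17.6% of liver-gene nuclei. Its log2 ratio over neuronal nuclei was 0.40 relative to genes of its own length group, 0.42 with size factors and 0.54 in nuclei with at most 0.5% mitochondrial UMIs, all within 1.5-fold. In inhibitory nuclei it was 0.52 where serotonergic nuclei were left in their transmitter class.

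In glutamatergic nuclei 3 members were at least 1.5-fold higher in SNI with brush (Gal, Stmn4 and Gadd45a), and Gap43 was lower by that much, of 9 with a ratio. Over all 15753 genes with a ratio there, 26.8% were that much higher and 8.68% that much lower, and the median log2 ratio was 0.06 for the members and 0.18 for all genes. In inhibitory nuclei 1 of 8 members was higher (Stmn4) and 4 were lower (Gap43, Stat3, Klf6 and Gal), against 30.9% and 8.41% of 13440 genes. The members' median there was -0.40 and that of all genes 0.24. The interval of Klf6 in inhibitory nuclei held 0 (log2 ratio -0.60, -1.41 to 0.22).

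**Figure D3:**
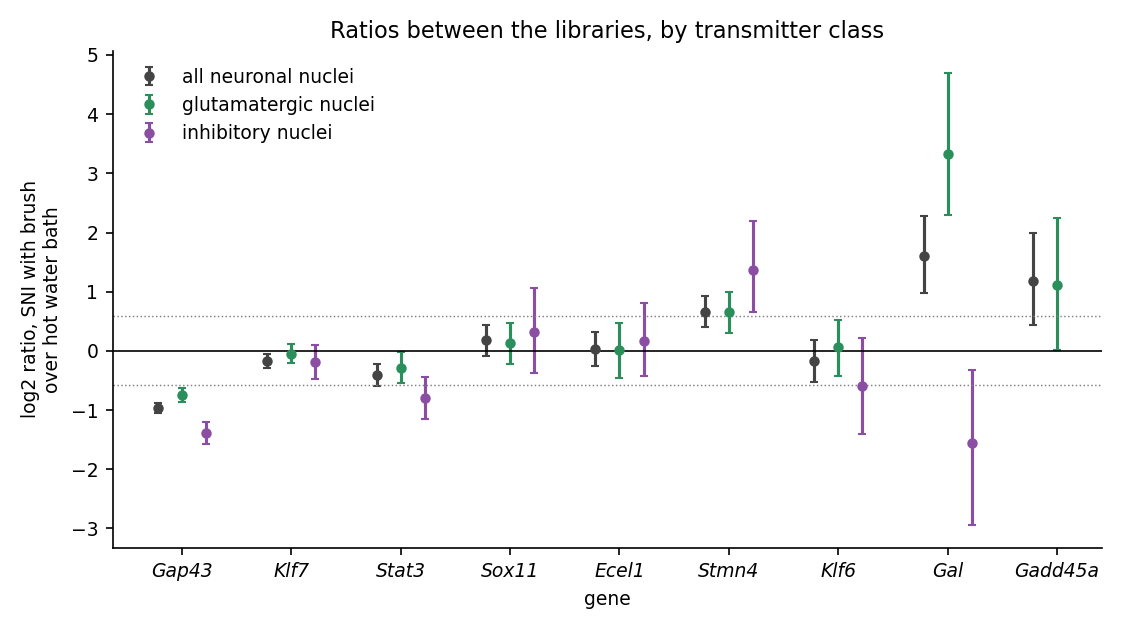
Log2 ratio of summed CPM (SNI with brush level divided by hot water bath level) in all neuronal, glutamatergic and inhibitory nuclei; bars are exact 95% intervals and dotted lines mark 1.5-fold. Gap43 lies below 0 in all 3 sets (-0.96, -0.75 and -1.39), Stmn4 above 0 in all 3, and Gal on opposite sides in glutamatergic and inhibitory nuclei.

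Gadd45a, a small protein of the DNA damage and stress response, had 38 UMIs in 36 SNI with brush nuclei and 25 UMIs in 25 hot water bath nuclei, or 3.54 CPM (2.51 to 4.87) against 1.55 CPM (1.00 to 2.28). The log2 ratio was 1.19 (0.43 to 1.99), and no nucleus held more than 2 UMIs. Relative to its length group, the shortest, it was 0.54, within 1.5-fold. The gene at chr6:67035096-67037457 overlaps E230016M11Rik on the opposite strand, which had 834 UMIs in SNI with brush and 1473 in hot water bath. No source used here states whether strand was used in counting, so the small Gadd45a counts are uncertain.

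Ecel1, an endopeptidase of injured neurons also known as DINE, had nearly equal sums in the libraries, and its interval left out 0 in 1 of 5 clusters. It had 173 UMIs in 71 SNI with brush nuclei and 255 UMIs in 126 hot water bath nuclei, or 16.1 CPM (13.8 to 18.7) against 15.8 CPM (13.9 to 17.8), a log2 ratio of 0.03 (-0.25 to 0.32). With the 7 clusters found in both libraries given the same weight, the log2 ratio was 0.95. That weighting counts Cyp26b1/Adgrl4, with 8 SNI with brush nuclei, as much as Sst/Slc30a3, with 100, where the log2 ratio was 0.07. Levels varied over clusters: in hot water bath Gcg/Snx31 stood at 75.8 CPM, Layn/Creb5 at 31.3 CPM and Adamts12/Myo3a at 0. Among clusters with at least 5 SNI with brush nuclei, the highest there were Layn/Creb5 at 48.6 CPM and Cyp26b1/Adgrl4 at 41.9 CPM. The 2 SNI with brush nuclei of Gcg/Snx31, below that minimum, held 24 of the 173 UMIs and stood at 262.5 CPM. Cyp26b1/Adgrl4 stood at 7.60 CPM in hot water bath, a log2 ratio of 2.40 (1.15 to 3.95) on 19 and 7 UMIs. The ratio was above 0 in 5 of 5 clusters, and the other 4 intervals held 0.

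Gal encodes galanin, a neuropeptide that sensory neurons make after nerve injury and some brainstem neurons make without it. It had 65 UMIs in 20 SNI with brush nuclei and 32 UMIs in 15 hot water bath nuclei, or 6.06 CPM (4.68 to 7.73) against 1.98 CPM (1.36 to 2.80), a log2 ratio of 1.60 (0.98 to 2.27). A single SNI with brush nucleus held 37 of the 65 UMIs, and the highest in hot water bath held 6. With the highest nucleus of each gene left out the log2 ratio was 0.69, and with each nucleus thinned to 20000 UMIs, which leaves out 58 SNI with brush and 37 hot water bath nuclei, the nucleus with 37 Gal UMIs included, it was -0.27. Without the Hoxb6/Pax8 cluster it was 2.50, and with the 7 clusters found in both libraries given the same weight it was -0.50. In glutamatergic nuclei Gal had 47 and 8 UMIs (log2 ratio 3.32, 2.30 to 4.69), and in inhibitory nuclei 9 and 16 UMIs (log2 ratio -1.55, -2.95 to -0.32). The 37-UMI nucleus was glutamatergic, lay in the Sst/Slc30a3 cluster, held 12409 UMIs in all with 0.870% mitochondrial, and had no Gap43, Atf3, Ecel1 or Gadd45a UMI. In hot water bath, 13 of the 32 Gal UMIs lay in the Hoxb6/Pax8 cluster (25.6 CPM), which stood at 1.15 CPM in SNI with brush.

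**Figure D4:**
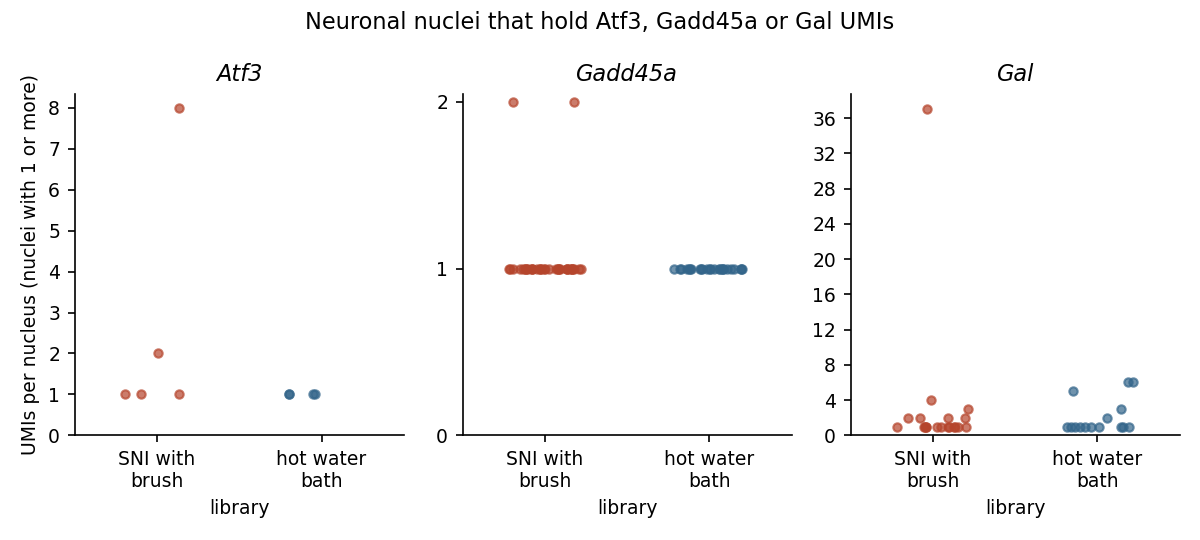
UMIs per nucleus of Atf3, Gadd45a and Gal in the neuronal nuclei that hold at least 1, for SNI with brush (left of each panel) and hot water bath (right); each point is a nucleus, spread sideways at random. Most points lie at 1 or 2 UMIs, and single SNI with brush nuclei reach 8 for Atf3 and 37 for Gal.

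The question of a subset of SNI with brush nuclei that carries the injury program jointly was put to 5 members. They are Atf3, Sox11, Ecel1, Gadd45a and Gal, chosen as known to be injury-induced or low in uninjured adult neurons. Without thinning, Sox11 was found in 43.9% of SNI with brush and 42.2% of hot water bath nuclei, and Ecel1 in 26.4% and 29.9%. Both genes were thus common in the hot water bath nuclei too. With every nucleus thinned to 9000 UMIs, which left out none, 0 of 269 SNI with brush nuclei and 0 of 422 hot water bath nuclei held 3 or more of these 5 genes. Taken as 3 counts of the total, a count of 0 allows a share of up to 1.12% in SNI with brush and 0.711% in hot water bath, where the exact intervals end at 1.36% and 0.870%. These limits hold for nuclei with such UMIs at this depth and set none on nuclei that express the genes, since Atf3, Gadd45a and Gal were each found in at most 3.35% of nuclei after thinning. Exactly 2 were held by 10 nuclei in SNI with brush (3.72%, 1.80 to 6.73) and by 11 in hot water bath (2.61%, 1.31 to 4.62). Exactly 1 was held by 73 and 113 nuclei, which is 27.1% against 26.8%, and none by 69.1% against 70.6%. At this depth the 2 distributions lay within each other's intervals at each number of genes.

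Without thinning, 12 SNI with brush nuclei (4.46%, 2.33 to 7.66) and 5 hot water bath nuclei (1.18%, 0.386 to 2.74) held 3 of the 5 genes, and none held 4 or 5. Each of the 2 shares lay outside the interval of the other. Single genes also differed at full depth: Gadd45a was found in 13.4% of SNI with brush and 5.92% of hot water bath nuclei. Gal was found in 7.43% and 3.55%. Whether the genes were held together more often than their single shares would give was not tested. The nuclei with 3 genes were deep in SNI with brush, with a median of 60048.5 UMIs, and had a median of 38624 UMIs in hot water bath. All neuronal nuclei had medians of 33172 UMIs in SNI with brush and 36886 in hot water bath. The combinations in SNI with brush were Sox11, Ecel1 and Gadd45a in 5 nuclei, Sox11, Ecel1 and Gal in 4, Ecel1, Gadd45a and Gal in 2, and Atf3, Sox11 and Ecel1 in 1. In hot water bath they were Sox11, Ecel1 and Gadd45a in 2, Sox11, Ecel1 and Gal in 2, and Sox11, Gadd45a and Gal in 1. The 12 nuclei fell into 5 clusters and all 4 classes: 5 were mixed, 4 glutamatergic, 2 inhibitory and 1 serotonergic, with 5 in Sst/Slc30a3, 3 in Acan/Tnfrsf22, 2 in Tph2/Slc6a4 and 1 each in Gcg/Snx31 and Layn/Creb5. The 5 hot water bath nuclei lay in 5 different clusters. At a depth of 20000 UMIs, 1.42% of the 211 SNI with brush nuclei that reach it held 3 of the genes, and 0 of the 385 hot water bath nuclei did.

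**Figure D5:**
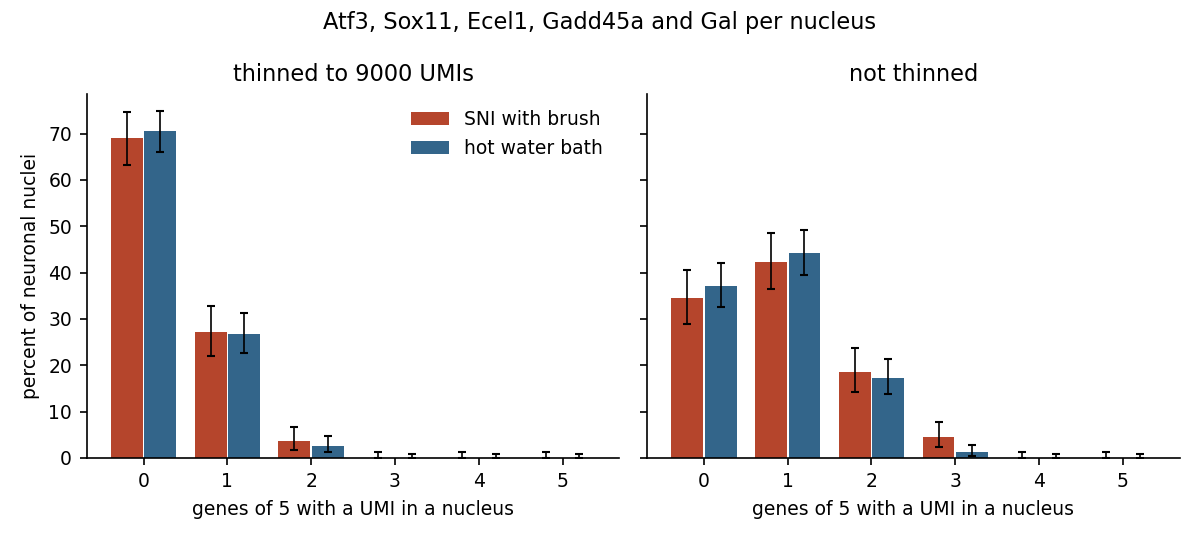
Percent of neuronal nuclei that hold a UMI of 0 to 5 of the genes Atf3, Sox11, Ecel1, Gadd45a and Gal, with exact 95% binomial intervals, at 9000 UMIs per nucleus (left) and at full depth (right). No nucleus of either library reaches 3 genes at 9000 UMIs, and at full depth 4.46% of SNI with brush and 1.18% of hot water bath nuclei do.

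Pairs of genes were counted in the same way. At full depth Ecel1 was found in 34 of 118 SNI with brush nuclei with Sox11 (28.8%) and 37 of 151 without it (24.5%), and in 58 of 178 (32.6%) and 68 of 244 (27.9%) hot water bath nuclei. At 9000 UMIs it was found in 2 of 41 SNI with brush nuclei with Sox11 (4.88%) and 31 of 228 without (13.6%), against 10 of 59 (16.9%) and 52 of 363 (14.3%) in hot water bath. Of the 5 SNI with brush nuclei with Atf3, 3 held Sox11, 1 held Ecel1, 1 held Gadd45a and none held Gal. Counted over all 10 members at 9000 UMIs, the median nucleus held 2 in both libraries, with a range of 0 to 5 in each.

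Free RNA in droplets can give single UMIs, and the 17 liver-gene nuclei serve as a comparison with intervals that are wide for that number. At 9000 UMIs Gadd45a and Gal were found in 5.88% of them (0.149 to 28.7) and in 2.60% and 3.35% of SNI with brush neuronal nuclei. Each 5.88% is 1 of 17 nuclei, so shares of a few percent could not have been told from it. Whether free RNA gave these UMIs was not tested. Klf6 was found in 11.8% of liver-gene nuclei against 9.67% of SNI with brush neuronal nuclei, and Stat3 in 58.8% against 25.7%. Liver cells are known to use both. Sox11 at 11.8% and Klf7 at 41.2% in liver-gene nuclei had intervals that held the 15.2% and 45.7% of neuronal nuclei. Ecel1 and Atf3 were found in 0 of 17, which allows a share of up to 17.6% by 3 counts of the total and 19.5% by the exact interval.

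Other genes of the same programs, in 5 lists of 77 genes, were read beside the members. Sprr1a and Gpr151 were not analysed here, and 69 of the other 75 had a ratio, of which 28 were at least 1.5-fold higher in SNI with brush and 7 were lower by that much, beside the 30.4% and 8.43% of all genes. Their median log2 ratio was 0.34, beside 0.23 for all genes. Of 16 other injury-induced genes 8 were higher and 4 lower, where 30.4% and 8.43% of all genes were. The largest were the neuropeptides Npy, with 187 against 14 UMIs (log2 ratio 4.28, 3.55 to 5.23), and Nts, with 175 against 21 UMIs (3.62, 2.99 to 4.38), of which single SNI with brush nuclei held 68 and 79. With the 7 clusters of the same weight the log2 ratio was 1.69 for Npy and 2.10 for Nts, and in nuclei with at most 0.5% mitochondrial UMIs it was 2.92 and 2.21. Arg1, an enzyme of arginine breakdown, had 13 against 7 UMIs (1.44, 0.05 to 3.05). Liver cells make it in quantity, its log2 ratio was 6.15 with the liver-gene nuclei kept, and liver markers stood at 259 against 11.1 CPM in the neuronal nuclei. Whether liver RNA added to the Arg1 counts was not tested. Timp1, a metalloproteinase inhibitor, had 10 against 48 UMIs (-1.62, -2.82 to -0.67). Jun, the partner of Atf3, had 74 against 112 UMIs, which is 6.90 CPM in SNI with brush and 6.93 CPM in hot water bath.

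Of 20 other growth and growth-cone genes 7 were higher and 1 lower, near the 30.4% and 8.43% of all genes, with a median log2 ratio of 0.14. The highest were Marcksl1, a substrate of protein kinase C (1.64, 42 against 20 UMIs, and 0.68 with at most 0.5% mitochondrial UMIs), the tubulins Tuba1a (1.43, 172 against 63.9 CPM) and Tubb2a (1.39, 111 against 42.1 CPM), and the stathmin Stmn3 (1.25, 405 against 170.0 CPM). Basp1, a relative of Gap43 in function, stood at 141 CPM in SNI with brush and 148 CPM in hot water bath (log2 ratio -0.07, -0.17 to 0.02). Of 11 stress genes with a ratio 5 were higher and 1 lower, where 30.4% and 8.43% of all genes were. Gadd45b (1.71, 68 against 31 UMIs), Gadd45g (1.36, 101 against 59 UMIs), Ddit3, a factor of endoplasmic reticulum stress (1.17, 115 against 77 UMIs), and Atf4, a factor of the integrated stress response (0.87, 238 against 196 UMIs) were the highest. The median log2 ratio of that list was 0.43. The calls of Gadd45b with the 7 clusters (0.58) and of Atf4 relative to genes of like length (0.23) fell within 1.5-fold.

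Of 11 genes of cytokine signalling to Stat3 and its brakes, 3 were higher, near the 30.4% of all genes, and none was lower, where 8.43% of all genes were. The median log2 ratio was 0.29. The receptor subunit Lifr stood at 44.8 against 29.1 CPM (0.62, 0.44 to 0.81, or -0.049 with the 7 clusters of the same weight), and Pias3, a brake on Stat3, at 9.42 against 5.69 CPM (0.73, 0.30 to 1.15). Both fell within 1.5-fold with size factors, at 0.38 for Lifr and 0.48 for Pias3. Socs3, which Stat3 induces and which ends its signal, had 4 UMIs in SNI with brush and 1 in hot water bath. Of 11 other Krüppel-like factors 5 were higher and 1 lower, where 30.4% and 8.43% of all genes were, with a median of 0.55. Klf4, which restrains axon growth in retinal ganglion cells, had 17 against 6 UMIs (2.02, 0.68 to 3.73), Klf10 had 72 against 42 UMIs (1.36, 0.80 to 1.95), Klf15 had 64 against 59 UMIs (0.71, 0.18 to 1.24, and 0.47 with size factors) and Klf11 had 15 against 43 UMIs (-0.90, -1.88 to -0.05).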

How the data were processed

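For each library the authors deposited UMI counts, whole numbers in a matrix of genes by nuclei, which were used as they stand. The submitters' processing notes name mm10, Cell Ranger 5.0 and, with no version, Seurat. The tables hold 288 of 850 listed barcodes for SNI with brush and 425 of 723 for hot water bath, and no source used here states the rule of that filter. Total UMIs were 11298755 and 16344606. The ages, the dissection and the virus are as the labels and the series' design text give them.

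A minimum of 500 genes and a limit of 5% mitochondrial UMIs removed no nucleus. Scrublet marked 2 SNI with brush and 3 hot water bath doublets, which were removed. Leiden clusters came from 2000 variable genes centred within library, 30 components, 15 neighbours and resolution 1 (scanpy 1.11.5, anndata 0.12.19, igraph 0.11.9, scikit-learn 1.9.0, numpy 2.4.6, scipy 1.17.1, pandas 2.3.3, matplotlib 3.10.9, python 3.11.15). A cluster with at least 3 of 7 liver markers at 10-fold or more of the other nuclei was left out, a rule changed after the first clustering had been seen. Nuclei with 10 or more Tph2 UMIs were serotonergic. Others were glutamatergic with at least 75%, and inhibitory with at most 25%, of 3 or more transmitter UMIs from vesicular glutamate transporters. In SNI with brush 32 nuclei and in hot water bath 39 lay between 65% and 85%, and 9 and 11 between 15% and 35%.

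Levels are summed counts per library as CPM, with exact Poisson intervals. Ratios have 0.5 UMI added to both sums, need 20 UMIs and carry exact intervals conditional on the sum. Shares carry Clopper-Pearson 95% intervals, after thinning by a seeded draw to 9000 UMIs where stated. A count of 0 is given a limit of 3 counts. The computation was tested on simulated data. Positions and gene lengths are from GENCODE vM21 for mm10 and cover 99.8% of genes with a ratio. The members, lists and alternatives were chosen with earlier results of these data known. From each list, the text names at most 4 genes, those with at least 20 UMIs, an interval without equality and the largest ratios of 1.5-fold or more. Jun, Basp1, Socs3 and the other genes of single nuclei were added after their values had been seen. No p-value was computed, since nuclei are not replicates. The values of 1 cluster are not reported here by name.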

Additional observations from a re-analysis of the deposited data

Results flagged for a closer look

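The Gal ratio between the libraries pointed in opposite directions in the transmitter classes. The log2 ratio, with SNI with brush on top, was 3.32 in glutamatergic nuclei and -1.55 in inhibitory nuclei, and the difference between the classes was not tested. The counts were 47 and 8 UMIs in glutamatergic nuclei and 9 and 16 UMIs in inhibitory nuclei. A single glutamatergic nucleus of SNI with brush held 37 of the 47, and a single inhibitory nucleus of hot water bath held 6 of the 16. Gal was found in 7 of 103 inhibitory nuclei of SNI with brush (6.80%) and 5 of 60 of hot water bath (8.33%).

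Stat3 was also measured in nuclei outside the comparison of the libraries, the 17 nuclei of SNI with brush with liver genes. It stood there at 160 CPM on 79 UMIs, with a UMI in 15 of the 17 nuclei, against 34.2 CPM in SNI with brush neuronal nuclei.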

How the results depend on the processing

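Of 572 values recomputed under an alternative, 423 stayed within their counting error or within 1.5 times for a count, 145 moved and 4 with an interval that left out 0 changed sign. Some of the 423 could change little or not at all. Without a minimum of UMIs all 31 values stayed, and each ratio there is the same by construction. All 53 stayed with doublets kept, and a share of 0 for 3 of the 5 genes fixes that for all 5. Ratios whose interval held 0, such as those of Sox11, Ecel1 and Klf6, also lay on both sides of 0. No paired analysis was possible because each treatment has 1 library, and no replicate could be left out. Over neuronal nuclei the number of members at least 1.5-fold lower was 2 with size factors, 2 relative to genes of like length and 0 with 7 clusters of the same weight, and the number higher was 1 relative to genes of like length. For the 5 other lists, 18 genes were higher and 12 lower with size factors, 17 higher relative to genes of like length and 4 lower with the 7 clusters. The log2 ratio of Klf7 was 0.26, that of Gal -0.50 and that of Lifr -0.049 with the 7 clusters, and that of Gal -0.27 at 20000 UMIs. In glutamatergic nuclei 0 members were lower where all transmitter UMIs had to be of 1 kind, and 1 was higher with at most 0.5% mitochondrial UMIs, which keeps 191 SNI with brush and 402 hot water bath nuclei. In inhibitory nuclei 2 were higher and 2 lower with transmitter UMIs of 1 kind, 2 lower with the limit raised to 90% of at least 5 transmitter UMIs, 3 higher and 2 lower with classes by cluster, and 2 higher with serotonergic nuclei left in. The share of SNI with brush nuclei with 3 of the 5 injury genes was 1.42% at 20000 UMIs, 4.46% without thinning and 3.72% for 2 or more genes. That of hot water bath nuclei was 1.18% without thinning and 2.61% for 2 or more genes. Except where an alternative uses fewer nuclei or genes by construction, the cause was not tested. The equal weight of clusters and the values without the Hoxb6/Pax8 cluster were added after seeing the data, and without that cluster the log2 ratio of Gap43 was -0.88 and that of Gal 2.50. Depth limits Atf3, Gadd45a and Gal, which have 17, 63 and 97 UMIs in all.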
